A study of Mus musculus with 8 samples.

Results

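The rows described here are the microRNA precursor loci that gave signal in RNA sequencing of single mouse embryos at E6.75 (embryonic day), around the onset of gastrulation. They were chosen by their level: a gene symbol that begins with Mir and a digit, and at least 1 RPKM (reads per kilobase of gene model, scaled to the mapped reads of the library) in at least 4 of the 8 embryos. Of 322 such symbols among the 21182 genes of the table, 28 met this rule. The level over all 8 embryos selected them, so the levels are given as a description. The rule does not use the difference between genotypes, although 1 locus, Mir181a-2, met it through Control embryos alone. The 8 rows of the let-7 family, whose symbols are spelled differently, are not included.

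Each sample was a single whole embryo, epiblast and extraembryonic tissues together, of the C57BL/6 background. The group labelled Control, whose columns are named 123WT, held 4 embryos. The other 4 embryos are labelled Tet1/2/3 TKO, a triple knockout of the genes for the methylcytosine dioxygenases TET1, TET2 and TET3. Which alleles and crosses were used, and which embryos were littermates, is not given in the sources used here. The p-values therefore measure only how these embryos vary. The study compares the genotypes to learn which transcripts of the gastrulating embryo need TET enzymes, and here the question is put to the microRNA loci.

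MicroRNAs are cut from hairpins that lie within longer primary transcripts. The nuclear complex of Drosha and Dgcr8 excises the hairpin, Xpo5 exports it, Dicer1 trims it to a duplex, and 1 strand is loaded into an Argonaute protein, where bases 2 to 8, the seed, choose the messenger RNAs that are repressed. Several hairpins often share 1 primary transcript, and the polycistrons Mir290, Mir302/Mir367, Mir17/Mir92 and their paralogues are known from pluripotent and early embryonic cells. The cDNA of this study was primed on polyadenylated RNA from long transcripts. A value at a hairpin row therefore reads the primary transcript or the gene that holds the hairpin, and it is not a level of mature microRNA.

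A seed found at 4 of the 28 loci is shown first, because these loci are set side by side below. Among them the groups did not overlap at Mir363 alone. The share of all mouse hairpins with this seed was not counted. Mature sequences were found in RefSeq (GRCm38.p6) for 23 members, 36 sequences with 33 different seeds. Among these 36 sequences, which do not include a 3p strand for Mir302a, the seed AUUGCAC was the one listed for more than 1 member. It occurred at Mir363 and Mir92-2 on chromosome X, at Mir25 on chromosome 5 and at Mir367 on chromosome 3. Mir17hg, the row of a host transcript, is not among the 23, so the hairpins inside it were not searched for this seed. The mature strands follow 5′ to 3′ with the seed in capitals.
miR-363-3p: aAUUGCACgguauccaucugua
miR-92a-3p: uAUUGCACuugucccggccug
miR-25-3p: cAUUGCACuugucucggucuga
miR-367-3p: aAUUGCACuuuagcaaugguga

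The RPKM row of each locus counts reads over the whole hairpin, so the hairpins are given too, with the same seed in capitals.
Mir363 (chrX:52741693-52741767, minus strand): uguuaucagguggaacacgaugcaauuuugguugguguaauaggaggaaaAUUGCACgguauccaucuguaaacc
Mir92-2 (chrX:52741838-52741928, minus strand): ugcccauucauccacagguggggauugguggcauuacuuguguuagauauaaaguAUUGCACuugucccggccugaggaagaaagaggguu
Mir25 (chr5:138165321-138165404, minus strand): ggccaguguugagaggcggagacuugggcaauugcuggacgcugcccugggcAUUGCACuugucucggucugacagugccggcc
Mir367 (chr3:127545733-127545807, plus strand): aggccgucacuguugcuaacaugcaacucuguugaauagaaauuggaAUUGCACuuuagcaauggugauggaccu

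Apart from Mir363, the hairpin loci whose groups did not overlap carry other seeds, shown in the same way for comparison. Mir181a-2 gives rise to miR-181a, a microRNA studied mainly in lymphocytes, and the other loci are less studied.
miR-1199-5p: uCUGAGUCccggucgcgcgg
miR-1199-3p: uGCGGCCGgugcucagucggc
miR-703: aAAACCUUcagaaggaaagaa
miR-181a-5p: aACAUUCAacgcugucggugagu

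Most values rest on few reads. At short hairpins each RPKM value could be turned back into whole reads from the hairpin length and the depth, which was estimated at 12.5 to 16.5 M reads (M for mega) in Control and 9.92 to 19.1 M reads in TKO-labelled embryos. A single read over a hairpin of 75 bases is worth 0.699 to 1.34 RPKM, so the rule can be met by 1 or 2 reads an embryo. Whole reads came out in every embryo for 25 of the 28 members, and for these the median was 3 reads per embryo. Only 4 of these members had at least 10 reads in every embryo, 17 had at most 10 in each, and 13 had an embryo with none. A value of 0 allows up to 3 reads, which is 2.10 to 4.03 RPKM at 75 bases, and read intervals below cover counting error only.

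The labels and the tissue makeup were checked before the loci were compared. The mean of Tet1 was 5.24 ± 0.37 RPKM in Control and 11.4 ± 2.82 RPKM in the other group (SD, n = 4 each), which goes against a loss of its transcript, so these embryos are called TKO-labelled throughout. Tet2 averaged 0.725 and 0.784 RPKM, and Tet3 1.85 and 1.38 RPKM. A value per gene does not check a deletion of exons. Markers of epiblast (Pou5f1, 10.8 to 57.3 RPKM), visceral endoderm (Ttr, 66.5 to 249.6 RPKM) and extraembryonic ectoderm (Elf5, 22.1 to 46.9 RPKM) were present in all 8 embryos. Single markers differed in mean between groups without passing the test. Pou5f1 had means of 15.3 ± 3.96 and 32.8 ± 18.04 RPKM in Control and TKO-labelled embryos (limma adjusted p = 0.215). Elf5 had means of 36.5 ± 8.48 and 27.1 ± 4.63 RPKM (limma adjusted p = 0.264). The lists behind these markers were mixed. Of 10 epiblast genes 6 were higher and 4 lower in TKO-labelled embryos, and of 8 extraembryonic ectoderm genes 3 and 5. The extraembryonic ectoderm genes summed to 127 to 191 RPKM in Control and 128 to 150 RPKM in TKO-labelled embryos. The ectoplacental cone marker Tpbpa was at 0 to 0.584 RPKM. The 8 listed cone genes, Tpbpa among them, summed to 263 to 499 RPKM in Control and 165 to 809 RPKM in TKO-labelled embryos. The decidual gene Prl8a2, a maternal marker, ranged from 1.32 to 354 RPKM. The summed level of 14 parietal endoderm genes was 173 to 347 RPKM in Control and 285 to 995 RPKM in TKO-labelled embryos. Of the 12 tested, 10 were at an unadjusted limma p under 0.05, all higher in TKO-labelled embryos, and 0 were called. Over all tested genes 13.9% were higher at that p. The part of these tissues in the results below was not tested, and in whole embryos fewer cells of a type and less RNA per cell cannot be told apart.

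The 28 loci spanned a wide range of levels. Means over the 8 embryos were above 10 RPKM for 7 members, between 5 and 10 RPKM for 2 and below 5 RPKM for 19. At least 1 RPKM was reached in all 8 embryos by 11 members and in exactly 4 embryos by 8. The map of RPKM by locus and embryo shows a small set of loci present in every embryo above a long tail with scattered zeros.

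**Figure D1:**
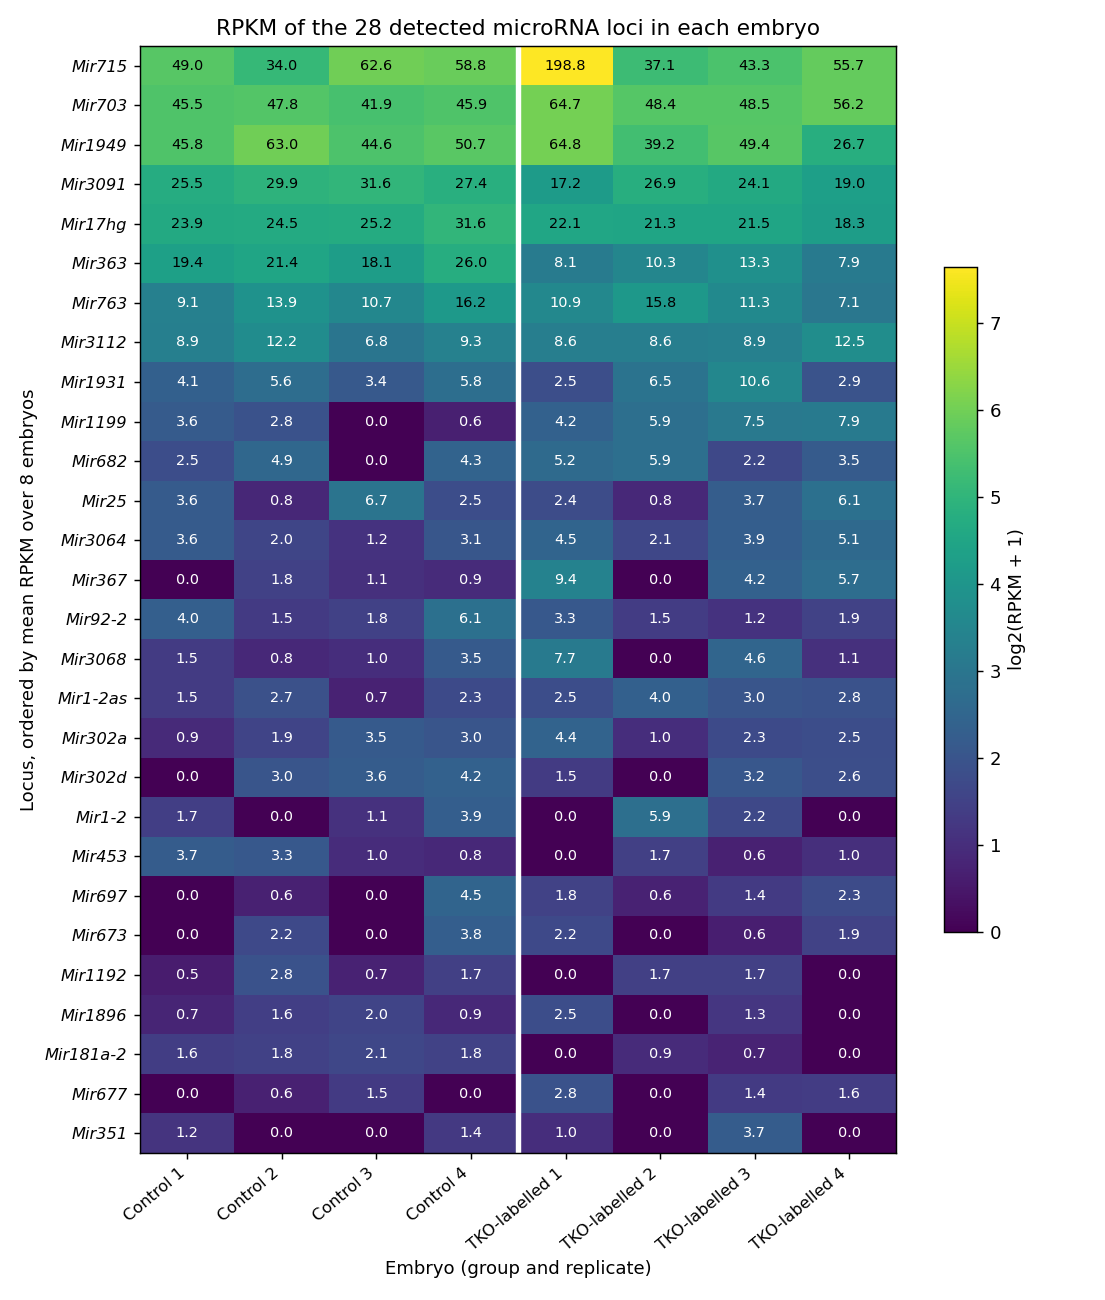
Heat map of the 28 loci (rows, ordered by mean RPKM) in 4 Control and 4 TKO-labelled embryos (columns). The number in each cell is the RPKM and the colour is log2(RPKM + 1). The 7 loci with means above 10 RPKM are present in every embryo, and Mir715 stands out in TKO-labelled replicate 1 at 198.8 RPKM.

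Of the 8 loci with the highest means, Mir715 came first at a mean of 67.4 RPKM, before Mir703 at 49.9 RPKM and Mir1949 at 48.0 RPKM. Mir715 was at 49.0, 34.0, 62.6 and 58.8 RPKM in Control replicates 1 to 4 and at 198.8, 37.1, 43.3 and 55.7 RPKM in TKO-labelled replicates 1 to 4. Replicate 1 of the TKO-labelled embryos stood far above the other 7, which overlapped between groups. Without that embryo the log2 difference, 0.38 over all embryos, was -0.15. Mir703 lies opposite to the gene now named Cfap299, whose row (1700007G11Rik) had means of 1.43 and 1.79 RPKM in the groups. The level at this hairpin was therefore many times that of the surrounding gene, at 45.5, 47.8, 41.9 and 45.9 RPKM in Control and 64.7, 48.4, 48.5 and 56.2 RPKM in TKO-labelled embryos. Mir703 was the best covered hairpin among the members with whole reads, at 57 to 101 reads an embryo. Whether reads from similar sequences elsewhere in the genome were counted at this row was not tested. Mir1949 overlapped between groups at 44.6 to 63.0 RPKM in Control and 26.7 to 64.8 RPKM in TKO-labelled embryos.

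The next loci of the 8 lie within known hosts or polycistrons. Mir17hg, the host transcript of the Mir17/Mir92 polycistron, was at 23.9, 24.5, 25.2 and 31.6 RPKM in Control and at 22.1, 21.3, 21.5 and 18.3 RPKM in TKO-labelled embryos. Mir763, in an intron of Hmga2, overlapped at 9.07 to 16.2 RPKM and 7.09 to 15.8 RPKM. Mir3112, in the X-linked polyadenylation factor gene Cstf2, overlapped at 6.84 to 12.2 RPKM and 8.59 to 12.5 RPKM. Mir3091 and Mir363 are described with their groups below.

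Between genotypes no locus passed the threshold. Of the 28 members, 0 were called higher and 0 lower in TKO-labelled embryos by limma on log2(RPKM + 1) with Benjamini-Hochberg adjustment at 0.05, and over all 10451 tested genes 0.00957% were called higher and 0% lower. The smallest adjusted p of a member was 0.112, at Mir363. By unadjusted limma p, 2 members were under 0.05 with a higher mean, Mir1199 and Mir1-2as, and 4 with a lower mean, Mir363, Mir181a-2, Mir17hg and Mir3091. Mir181a-2 met the level rule through its Control embryos alone and so had to differ. Over all tested genes these shares were 13.9% higher and 3.6% lower. The log2 difference was above 0 for 14 members and below 0 for 14, with a median of 0.02 against 0.09 over all tested genes. With a median-ratio scaling of the embryos, which moves the median of all tested genes to 0.01, the members' median was -0.05, 12 members lay above 0, and the counts at an unadjusted p under 0.05 were again 2 and 4. The same scaling moved the share of higher values among all genes at that p from 79.4% to 50.8%.

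The precision of single loci was low. The standard error of the log2 difference had a median of 0.38 over the members and of 0.14 over all tested genes, and it was above that all-gene median for 26 of 28 members. A difference that misses the threshold at these loci does not show that the groups were alike. The interval at Mir25, for example, reached from -1.04 to 1.01 around a difference of -0.02.

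**Figure D2:**
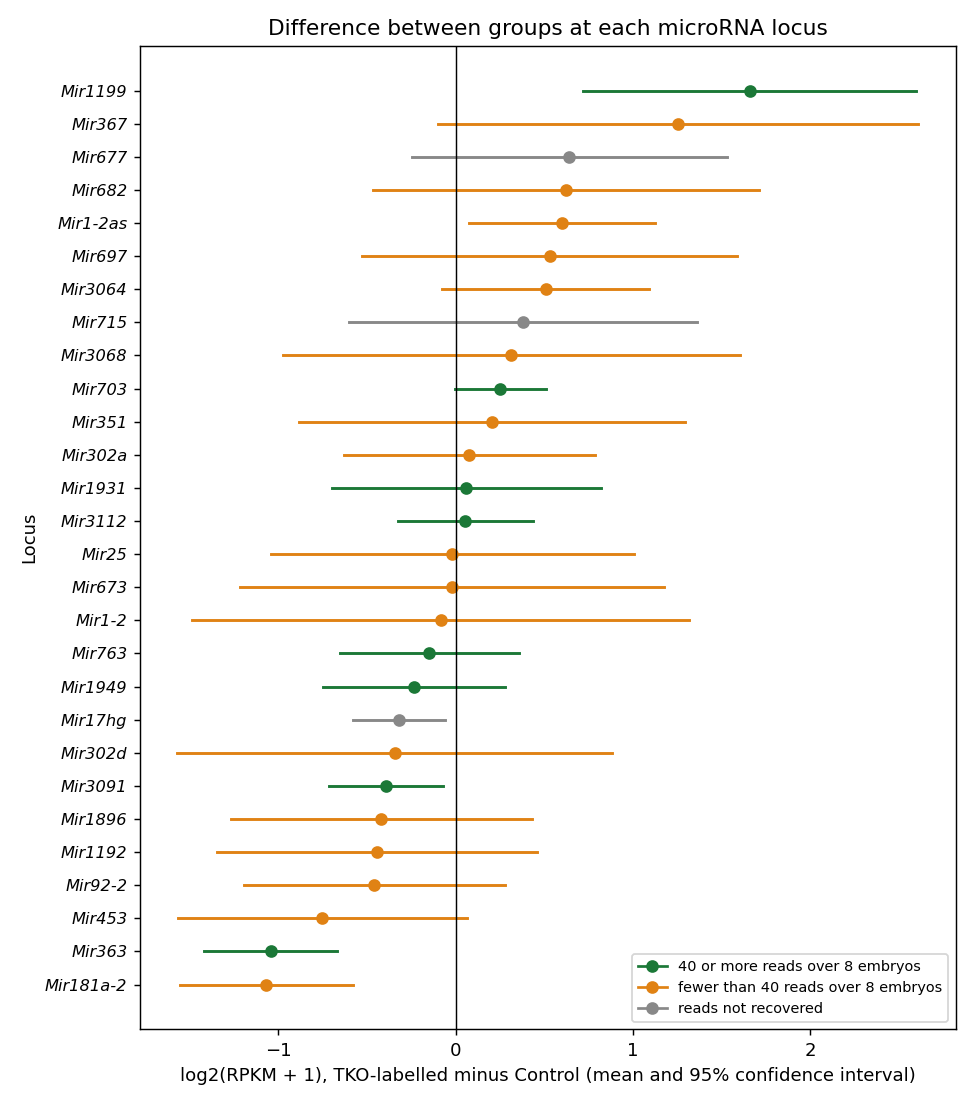
Difference in log2(RPKM + 1), TKO-labelled minus Control, for each of the 28 loci (points), with the 95% confidence interval of limma (lines) and colours by the number of reads over all 8 embryos. The widest intervals belong to loci with fewer than 40 reads, and the estimates reach from -1.07 at Mir181a-2 to 1.66 at Mir1199.

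At 5 loci the Control and TKO-labelled ranges were fully apart. Mir1199 and Mir703 were higher in all 4 TKO-labelled embryos, 7.14% of the members where 7.55% of all tested genes behaved so. Mir363, Mir17hg and Mir181a-2 were lower, 10.7% of the members where 1.86% of all tested genes behaved so. Apart from Mir181a-2, which the level rule obliged to differ, this leaves 2 lower loci, Mir363 and Mir17hg. For a single locus without overlap the exact two-sided permutation p is 0.0286, the smallest that 70 assignments of the embryos allow.

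**Figure D3:**
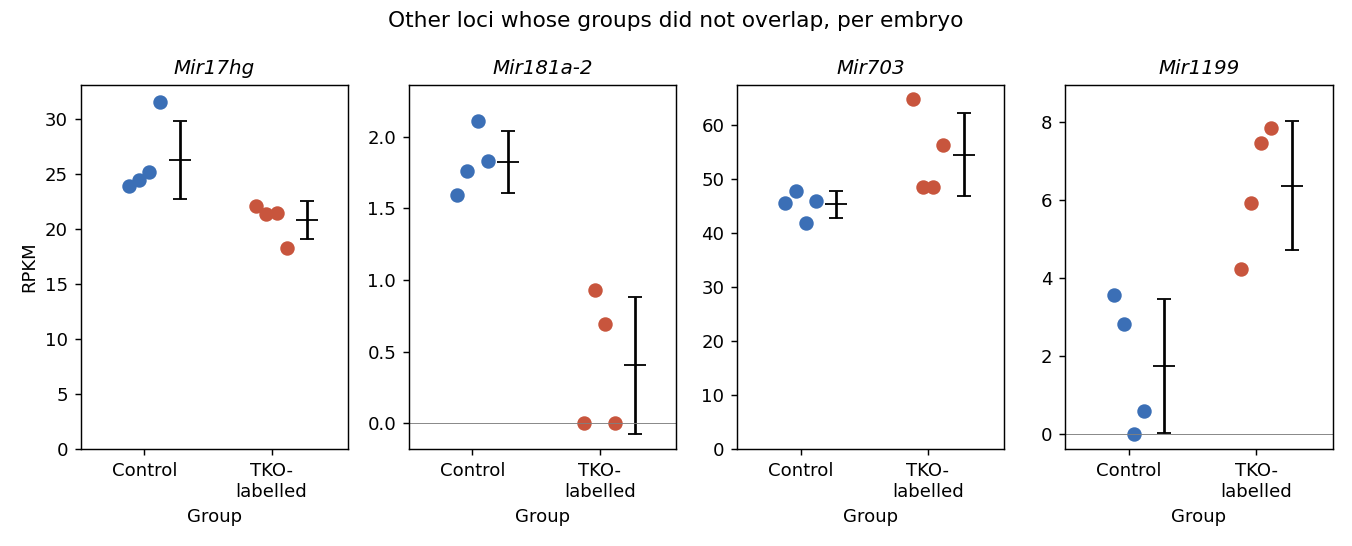
RPKM per embryo (points) with the group mean and SD (bars, n = 4 each) at 4 loci whose Control and TKO-labelled values did not overlap, each on its own axis. Mir17hg and Mir181a-2 are lower and Mir703 and Mir1199 higher in the TKO-labelled embryos, and Mir181a-2 was selected through its Control values.

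Mir363 had the smallest p among the loci. Its hairpin closes the Mir106a/Mir363 polycistron, a paralogue of Mir17/Mir92 on the X chromosome. Levels were 19.4, 21.4, 18.1 and 26.0 RPKM in Control replicates 1 to 4 and 8.06, 10.3, 13.3 and 7.94 RPKM in TKO-labelled replicates 1 to 4. All 4 Control embryos lay above all 4 TKO-labelled embryos, with means of 21.2 ± 3.43 and 9.90 ± 2.50 RPKM (SD, n = 4 each). The log2 difference was -1.04 (95% confidence interval -1.42 to -0.67, limma p = 8.76e-05 before and 0.112 after Benjamini-Hochberg adjustment, exact permutation p = 0.0286). The reads behind these values were 24, 24, 17 and 28 in Control and 6, 11, 19 and 7 in TKO-labelled embryos, so that the counts of the deepest TKO-labelled embryo and the shallowest Control embryo overlap while their RPKM do not. Pooled over each group the locus had 159 reads per 100 M in Control (exact Poisson interval 129 to 195) and 78.2 in TKO-labelled embryos (56.6 to 105). Leaving out single embryos or changing the processing kept the difference between -1.18 and -0.82, with adjusted limma p from 0.0513 to 0.320 and no call.

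The other hairpins of the same polycistron were near the floor. Counted from the start of Mir106a, Mir92-2 begins 639 and Mir363 800 bases downstream. Mir92-2 was at 3.99, 1.47, 1.76 and 6.11 RPKM in Control and 3.32, 1.55, 1.15 and 1.87 RPKM in TKO-labelled embryos, 2 to 8 reads an embryo. These groups overlap, and the limma adjusted p was 0.496. Mir106a, Mir18b, Mir20b and Mir19b-2 each had a value above 0 in a single embryo, with a highest value of 1.26 RPKM, and are not members. Kis2, a noncoding transcript whose start lies upstream, at -2026 bases on the same scale, lay between 0.026 and 0.296 RPKM in all embryos. The level at Mir363 was above that of Mir92-2, its nearest neighbour, in every embryo.

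Because Mir363 is X-linked, its level was also read separately by the level of Xist, the noncoding RNA of X inactivation. In the 4 embryos above 5 RPKM of Xist, Mir363 was at 18.1 to 19.4 RPKM in Control and 8.06 to 10.3 RPKM in TKO-labelled embryos (2 embryos each). In the 4 embryos with less Xist it was at 21.4 to 26.0 RPKM and 7.94 to 13.3 RPKM. The ranges of the groups are apart over all 8 embryos, so any such division leaves them apart, and these values are a description. The other X-linked members, Mir92-2, Mir351 and Mir3112, overlapped between genotypes.

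Mir367 shares its seed with Mir363, lies in the Mir302/Mir367 polycistron of the epiblast, and had the opposite sign. Its values were 0, 1.78, 1.07 and 0.927 RPKM in Control and 9.40, 0, 4.19 and 5.67 RPKM in TKO-labelled embryos. TKO-labelled replicates 1, 3 and 4 lay above every Control embryo, and replicate 2 was at 0. The reads were 4 in all of Control, or 6.86 per 100 M (exact Poisson interval 1.87 to 17.6), and 18 in TKO-labelled embryos, or 32.7 per 100 M (19.4 to 51.7). The log2 difference of 1.26 (95% confidence interval -0.10 to 2.61) did not pass (limma adjusted p = 0.318), and it was 0.84 without TKO-labelled replicate 1 and 1.96 without replicate 2.

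The Mir302 hairpins beside it were at the same low level. Mir302a was at 0.877, 1.94, 3.48 and 3.02 RPKM in Control and 4.38, 1.02, 2.28 and 2.47 RPKM in TKO-labelled embryos. Mir302d was at 0, 3.04, 3.64 and 4.21 RPKM and at 1.53, 0, 3.17 and 2.58 RPKM. Both overlapped between groups, with log2 differences of 0.08 and -0.34 and limma adjusted p of 0.919 and 0.775. Mir302b and Mir302c did not meet the rule. Mir302b had 2 reads in Control replicate 3 and 2 in TKO-labelled replicate 1. Mir302c had 1 read in Control and 5 in TKO-labelled embryos, at 0.89 RPKM in Control replicate 1 and at 1.48 and 5.01 RPKM in TKO-labelled replicates 1 and 4.

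The mature miR-302d-3p carries another seed, AAGUGCU, and the same letters occur in the Mir302a hairpin. Of the 21 member hairpins in RefSeq these 2 held the letters on their own strand, as did 2.39% of all 1005 mouse hairpins there. They are shown in capitals.
miR-302d-3p: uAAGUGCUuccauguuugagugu
Mir302d (chr3:127545624-127545689, plus strand): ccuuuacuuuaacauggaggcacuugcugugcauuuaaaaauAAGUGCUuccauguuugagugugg
Mir302a (chr3:127545496-127545564, plus strand): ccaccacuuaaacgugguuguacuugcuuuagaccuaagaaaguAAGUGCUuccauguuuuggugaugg

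The whole Mir302/Mir367 polycistron lies in reverse orientation within an intron of Larp7, a gene for an RNA-binding protein of the 7SK complex. Larp7 averaged 107.8 ± 21.5 and 105.1 ± 5.14 RPKM in the groups (limma adjusted p = 0.956). Whether strand was used in counting is not given in the sources used here, so reads of Larp7 introns and of the polycistron cannot be told apart. The summed level of 10 epiblast genes, the tissue this polycistron is known from, was 494, 690, 574 and 676 RPKM in Control and 1013, 603, 502.9 and 755 RPKM in TKO-labelled embryos. Among the TKO-labelled embryos, replicate 1 was highest in this sum, in Mir367 and in Mir302a, but not in Mir302d, and replicate 3, with the lowest sum, had Mir367 at 4.19 RPKM. The part of the epiblast share in these values was not tested.

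Mir25, the fourth locus found with the seed, closes the Mir106b/Mir25 polycistron inside Mcm7, which encodes a subunit of the replicative helicase. It was at 3.60, 0.796, 6.67 and 2.48 RPKM in Control and 2.40, 0.838, 3.74 and 6.08 RPKM in TKO-labelled embryos, 1 to 7 reads an embryo. The groups covered the same range. Mir106b was at 0 in all embryos and Mir93 was above 0 in 1. How a read that falls in a hairpin row and in Mcm7 was counted is not known here. Mcm7 averaged 89.6 ± 10.8 and 100.3 ± 18.4 RPKM (limma adjusted p = 0.607).

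Summed over the 4 hairpin loci found with the seed, without Mir17hg, the level was 27.0, 25.4, 27.6 and 35.5 RPKM in Control. It was 23.2, 12.7, 22.4 and 21.6 RPKM in TKO-labelled embryos. The lowest Control sum lay above the highest TKO-labelled sum, but Mir363 made up 73.5% of the sum in Control and 49.6% in TKO-labelled embryos, and Mir367 3.27% and 24.1%. The sum is a description of signal at hairpin loci, without a test.

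**Figure D4:**
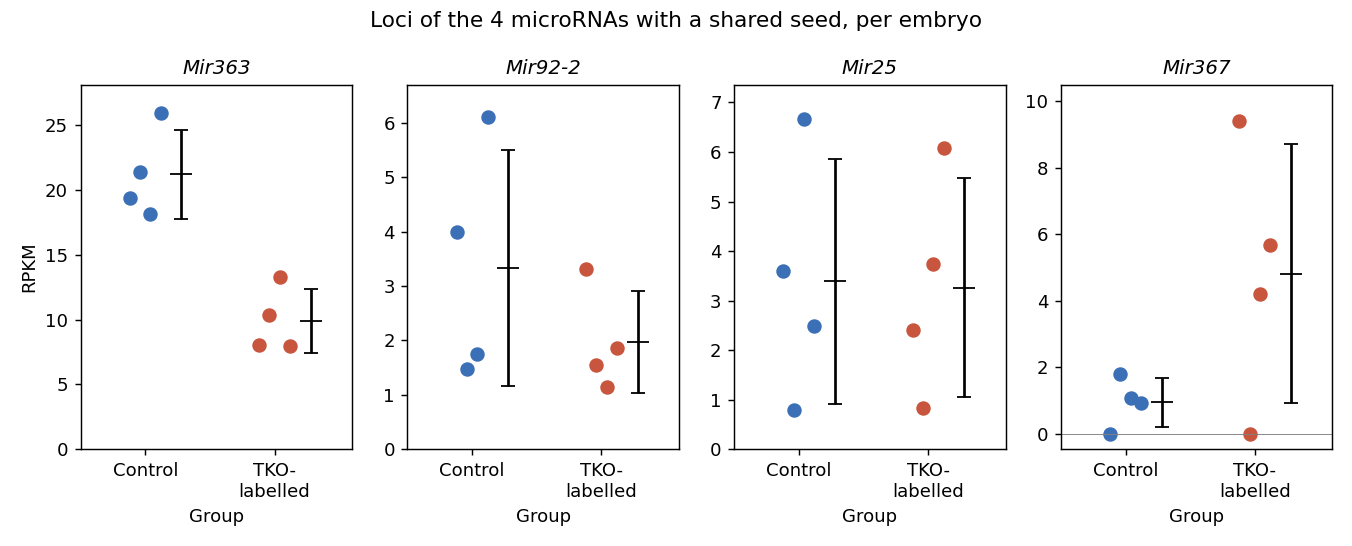
RPKM per embryo (points) with the group mean and SD (bars, n = 4 each) at the 4 hairpin loci whose mature microRNAs were found to share a seed, each on its own axis. At Mir363 all 4 Control embryos lie above the TKO-labelled embryos, at Mir92-2 and Mir25 the groups overlap, and at Mir367 3 of 4 TKO-labelled embryos lie above Control.

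Mir17hg, on chromosome 14, is a transcript row and not a hairpin. Its mean was 26.3 ± 3.56 RPKM for Control and 20.8 ± 1.73 RPKM for the TKO-labelled group (SD, n = 4 each). The log2 difference was -0.32 (SE 0.12, limma p = 0.0216 before and 0.225 after Benjamini-Hochberg adjustment, exact permutation p = 0.0286). Control replicate 4, at 31.6 RPKM, stood above the other Control embryos, and without it the difference was -0.23 (limma adjusted p = 0.402). The rows of the hairpins inside it held almost no reads. Mir18, Mir19a and Mir19b-1 were at 0 in all 8 embryos, and Mir17 and Mir20a were above 0 in 1 embryo each. How a read that falls in 2 overlapping rows was counted is not known here. These zeros therefore do not show that the hairpin part of the transcript was absent.

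Mir1199 had the largest estimate on the log2(RPKM + 1) scale. Its levels were 3.56, 2.81, 0 and 0.584 RPKM in Control and 4.23, 5.92, 7.48 and 7.86 RPKM in TKO-labelled embryos. All TKO-labelled embryos lay above all Control embryos, and Control replicate 3 had no read. The locus had 13 reads in Control and 43 in TKO-labelled embryos, and its highest value was 13.5 times its lowest above 0, the widest ratio among the members. The log2 difference was 1.66 (SE 0.42, limma p = 0.00266 before and 0.156 after Benjamini-Hochberg adjustment, exact permutation p = 0.0286), and its adjusted p was 0.121 to 0.398 under the other settings. The estimate was 2.77 with a pseudocount of 0.1 and 0.78 with a pseudocount of 5, where that of Mir363 was larger in size, at -0.82. That of Mir367 was the larger without Control replicate 3 (1.32 and 1.26) and without TKO-labelled replicate 2 (1.96 and 1.68). The hairpin lies on chromosome 8 in an exon of the transcript 2210011C24Rik.

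Mir703 had means of 45.3 ± 2.49 RPKM for Control and 54.5 ± 7.74 RPKM for the TKO-labelled group, a log2 difference of 0.25 (SE 0.12, limma adjusted p = 0.292). The groups were separated by a narrow gap, between 47.8 and 48.4 RPKM, and they overlapped after median-ratio scaling, where the other 4 loci stayed apart. Mir181a-2 was at 1.59, 1.76, 2.11 and 1.83 RPKM in Control and at 0, 0.926, 0.689 and 0 RPKM in TKO-labelled embryos. These values stand for 2 reads in each Control embryo and at most 1 in each TKO-labelled embryo. Nr6a1, the nuclear receptor gene that holds this hairpin on its opposite strand, averaged 18.6 ± 1.70 and 19.6 ± 1.85 RPKM (limma adjusted p = 0.763).

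The hairpin rows of the remaining polycistrons were barely detected. In the imprinted Dlk1-Dio3 region on chromosome 12, which carries a large set of microRNA hairpins, 32 rows were listed and 205 of their 256 values were 0. Only Mir453 and Mir673 met the rule. Mir453 was at 3.69, 3.26, 0.976 and 0.848 RPKM in Control and 0, 1.72, 0.639 and 1.04 RPKM in TKO-labelled embryos, and Mir673 was at 0 in 2 Control embryos and 1 TKO-labelled embryo. Both overlapped between groups (limma adjusted p = 0.321 and 0.988). The long noncoding RNAs of the same region were well covered: Meg3 averaged 24.8 ± 5.27 and 20.4 ± 4.63 RPKM, Rian 14.9 ± 2.70 and 18.2 ± 7.79 RPKM, and Mirg, whose intron holds Mir453, 7.66 ± 0.82 and 7.99 ± 1.36 RPKM in Control and TKO-labelled embryos.

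In the X-linked Mir322/Mir503 polycistron only Mir351 met the rule, at 1.22, 0, 0 and 1.41 RPKM in Control and 1.02, 0, 3.70 and 0 RPKM in TKO-labelled embryos. Mir290, a row of the polycistron best known from embryonic stem cells, was above 0 in 3 embryos, with a highest value of 1.61 RPKM. Mir15a and Mir16-1 were at 0 in all embryos. Of the imprinted single loci, Mir335 was at 0 in all embryos, and Mir296 reached 2.55 RPKM in TKO-labelled replicate 1.

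Some members could not be separated from a gene around or beside them. By GENCODE (release M21) 8 members lay in an exon of at least 1 transcript on their own strand, 9 in an intron on their own strand, 5 only opposite to another gene, and 4 within no other gene, while Mir17hg is itself a host and Mir715 had no RefSeq entry. Mir1-2 lies within Mir1-2as on the opposite strand, and how reads that fall in both were counted is not known here. Mir1-2as was at 0.656 to 2.74 RPKM in Control and overlapped with the TKO-labelled group, at 2.48 to 4.04 RPKM. Its log2 difference was 0.60 (limma p = 0.0290 before and 0.239 after Benjamini-Hochberg adjustment, exact permutation p = 0.0571). Mir1-2 was at 0 in 3 embryos.

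For 12 members a row of the gene that holds them on the same strand could be set beside them. All 12 hosts were tested and 0 were called by limma. At an unadjusted limma p under 0.05 were 2, Atp5b higher and Rps21 lower, where 13.9% and 3.6% of all tested genes were. Atp5b and Cstf2 were higher and Rps21 lower without overlap between groups, where 7.55% and 1.86% of all tested genes behaved so. The member's level was a median of 11.8% of its host's, and the signs of the log2 difference were the same in 8 pairs and opposite in 4. A read over a hairpin within an exon also falls in the host, and how it was counted is not known here. The pairs are therefore not independent measurements.

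Mir3091, in an intron of the ribosomal protein gene Rps21, was the best covered of these. It was at 25.5, 29.9, 31.6 and 27.4 RPKM in Control and 17.2, 26.9, 24.1 and 19.0 RPKM in TKO-labelled embryos. Only TKO-labelled replicate 2 reached into the Control range. The log2 difference was -0.39 (SE 0.15, limma p = 0.0217 before and 0.225 after Benjamini-Hochberg adjustment, exact permutation p = 0.0571). Rps21 itself was at 1150 to 1681 RPKM in Control and 781 to 1085 RPKM in TKO-labelled embryos, without overlap (log2 difference -0.54, SE 0.15, limma adjusted p = 0.160).

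In the other direction, Atp5b, the ATP synthase subunit gene that holds Mir677, averaged 574.5 ± 73.6 and 755.9 ± 86.6 RPKM without overlap (log2 difference 0.40, limma adjusted p = 0.189). Mir677 itself was at 0 to 1.47 RPKM and 0 to 2.77 RPKM, with overlap. Cstf2, the host of Mir3112, also did not overlap, at 14.0 to 17.1 and 17.4 to 19.1 RPKM (limma adjusted p = 0.315). Hmga2, which encodes a chromatin architectural protein of embryonic tissues, averaged 28.2 ± 4.43 and 36.2 ± 12.9 RPKM, while Mir763 in its intron averaged 12.5 ± 3.21 and 11.3 ± 3.58 RPKM. Neither of the latter passed the test (limma adjusted p = 0.489 and 0.763).

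**Figure D5:**
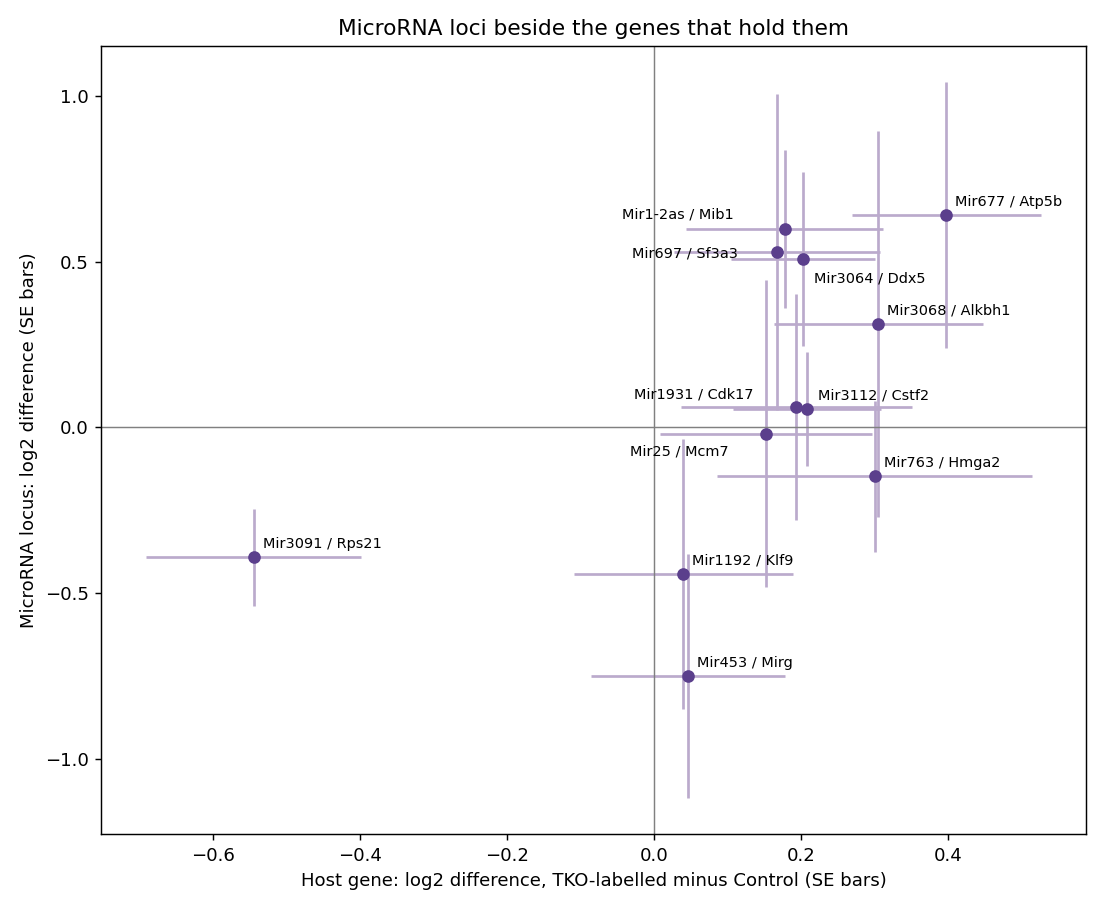
Log2 difference, TKO-labelled minus Control, of 12 microRNA loci (vertical axis) against that of the gene that holds each on the same strand (horizontal axis), with SE bars. In 8 pairs the signs are the same, Mir3091 and Rps21 lie together below 0, and the bars of the loci are longer than those of the hosts in most pairs.

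The genes that make and use microRNAs were listed apart from the loci. Of 31 such genes 29 could be tested, and 0 were called by limma. By unadjusted limma p, 4 (13.8%) were under 0.05 with a higher mean in the TKO-labelled group and 0 with a lower mean, where 13.9% and 3.6% of all tested genes were. The median log2 difference of the 29 was 0.05, with 17 above and 12 below 0, beside 0.09 over all tested genes. Drosha, the nuclear nuclease, averaged 35.4 ± 4.44 and 36.1 ± 3.47 RPKM in Control and TKO-labelled embryos, its partner Dgcr8 9.30 ± 0.85 and 11.1 ± 1.48 RPKM, and Dicer1 7.76 ± 0.87 and 7.58 ± 0.82 RPKM. Ago2, listed as Eif2c2, averaged 3.14 ± 0.45 and 3.70 ± 0.46 RPKM. The 4 at an unadjusted p under 0.05 began with the exporter Xpo5, at 6.98 ± 1.595 and 9.73 ± 2.10 RPKM (limma adjusted p = 0.254). Mov10, an RNA helicase bound to Argonaute proteins, was at 2.33 ± 0.38 and 3.501 ± 0.23 RPKM without overlap (limma adjusted p = 0.166). Xrn2, a nuclear exonuclease, was at 34.4 ± 4.36 and 41.5 ± 4.25 RPKM (limma adjusted p = 0.279). Hnrnpa1, which binds some primary transcripts, was at 1.42 ± 0.28 and 3.24 ± 0.71 RPKM, also without overlap (limma adjusted p = 0.120). Its level is uncertain because near-identical copies of this gene can take its reads. In the other direction Ddx17, a helicase that assists Drosha, was at 47.1 ± 2.64 and 42.3 ± 1.097 RPKM without overlap (limma adjusted p = 0.409). Of the 29 tested, 2 were higher and 1 lower without overlap, where 7.55% and 1.86% of all tested genes behaved so.

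The regulators of let-7 maturation were present too. Lin28a averaged 23.5 ± 1.67 and 33.6 ± 11.8 RPKM in Control and TKO-labelled embryos (limma adjusted p = 0.299), and its paralogue Lin28b 9.49 ± 2.37 and 8.69 ± 0.78 RPKM (limma adjusted p = 0.816). Trim71, an RNA-binding protein and target of let-7, averaged 22.5 ± 1.96 and 21.6 ± 2.69 RPKM (limma adjusted p = 0.814).

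At the edge of the level rule the choice turned on values near that of a single read. The rule asks for the fourth highest of the 8 values to reach 1 RPKM. Just inside it were Mir351 at 1.02, Mir453 at 1.04 and Mir1896 at 1.29 RPKM, and just outside it Mir3072 and Mir1898, both at 0.965 RPKM, and Mir1982 at 0.951 RPKM. The members with the widest ratio of highest to lowest value above 0 after Mir1199 were Mir367, at 10.1, and Mir3068, at 9.05, which was at 7.65 RPKM in TKO-labelled replicate 1 and at 0 in replicate 2.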

How the data were processed

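The authors' deposited table holds RPKM for 21182 genes in 8 embryos, per the file headers, and HTSeq and the build mm9 come in per the submitters' processing notes. Which aligner, annotation, read total and strand setting lay behind the values is not given in the sources used here. Per the labels' protocols, single embryos were lysed and their RNA was converted with a SMARTer kit and Nextera XT. Members and lists were chosen with earlier results of these data known. Depth was estimated as the total at which low RPKM values at microRNA rows, times the RefSeq hairpin length, came out as 1 to 10 whole reads (within 3%). Such values made up 93.0% to 96.8% an embryo. Because this held for short loci and not for whole genes, no count test was run. Groups were compared with limma 3.58.1 (R 4.3.3) on log2(RPKM + 1), with a variance trend and without a block or covariate, on genes with at least 1 RPKM in 4 of 8 embryos, with Benjamini-Hochberg adjustment over 10451 genes. This scale understates changes of low genes. Single values were compared by an exact two-sided permutation (scipy 1.17.1). Named are the 8 highest members, those without overlap between groups, members and mates of known polycistrons, the 3 widest ratios, 3 loci on each side of the rule, hosts, and the machinery genes given or at an unadjusted p under 0.05. Mir1-2as, Mir1-2, Mir677, Mir3091 and Ddx17 were named after their values were seen where the rule does not reach them. Of the symbols beginning with Mir and a digit, 313 of 322 matched RefSeq, and of the members 25 matched by current symbol, 2 by an older symbol and 1 not at all. RefSeq and GENCODE follow GRCm38, another build than that of the deposited values, so positions describe the reference sequences. Alternatives changed the pseudocount, filter, scaling, trend, block and the embryos included.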

Additional observations from a re-analysis of the deposited data

Results flagged for a closer look

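Within a group of 4 embryos, a value was singled out where its gap to the nearest other embryo was large against the range of the group. Of 102 groups examined over members, their hosts and a part of the machinery genes 7 met this mark, and chance gives about 1 in 20. Among the loci, Mir715 was at 198.8 RPKM in TKO-labelled replicate 1, where the next highest embryo of that group was at 55.7 RPKM. Mir697 was at 4.46 RPKM in Control replicate 4 and at most at 0.613 RPKM in the other Control embryos. Mir17hg was at 31.6 RPKM in Control replicate 4, next to 25.2 RPKM. Mir3112 was at 12.5 RPKM in TKO-labelled replicate 4, next to 8.94 RPKM. Among the machinery genes, Drosha was at 41.3 RPKM in TKO-labelled replicate 4 (next 34.7), Xrn2 at 47.8 RPKM in TKO-labelled replicate 4 (next 39.98) and Trim71 at 25.4 RPKM in Control replicate 4 (next 21.9). All 7 are highest values, and the cause of each was not tested.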

How the results depend on the processing

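Read depth limits most loci, since 17 members had at most 10 reads in every embryo. Over 15 alternatives 0 members, 0 hosts and 0 machinery genes were called, and the smallest adjusted limma p of a member was 0.0513. Of 401 recomputed values 373 kept their direction and side of the threshold and 28 reversed, at 11 of the 28 members. Over all genes 1 was called. This count was 2 with a filter of 5 RPKM, where fewer genes were tested, 0 without a filter, 0 with the replicate number as a block, and 0 to 40 when single embryos were left out (40 without TKO-labelled replicate 1). Deviations of same-numbered embryos correlated at -0.0207 to 0.40. Control replicates 2 and 3 correlated best with the TKO-labelled embryo of their own number, at 0.40 (best other 0.088) and 0.26 (best other 0.15). Control replicates 1 and 4 did not, at -0.0045 (best other 0.11) and -0.0207 (best other 0.196). Whether a shared number marks a shared batch or litter was not tested. Loci without overlap numbered 5, 3 of the 9 members left by a filter of 5 RPKM, 4 after median-ratio scaling, and 5 to 8 without single embryos (8 without TKO-labelled replicate 2). Reversed log2 differences were 0.027 at Mir1-2 with a pseudocount of 5, -0.13 at Mir3068 and 0.44 at Mir673 with a pseudocount of 0.1, and -0.020 at Mir1931 and -0.038 at Mir3112 after scaling. Leaving out single embryos gave -0.64 to 0.29 at Mir1-2, -0.26 to 0.30 at Mir1931, -0.39 to 0.33 at Mir25, -0.17 to 0.32 at Mir302a, -0.89 to 0.094 at Mir302d, -0.17 to 0.87 at Mir3068, -0.068 to 0.18 at Mir3112, -0.27 to 0.48 at Mir351, -0.35 to 0.41 at Mir673, -0.15 to 0.65 at Mir715 and -0.32 to 0.037 at Mir763. The cause of these reversals was not tested.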

Other observations

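Outside the 28 loci, signal at microRNA rows was sparse. Of the 322 rows whose symbols begin with Mir and a digit, 85 were at 0 in all embryos, 132 were above 0 in a single embryo, and 15 were above 0 in all 8. The number of such rows above 0 was 53, 71, 98 and 71 in Control replicates 1 to 4 and 60, 59, 81 and 50 in TKO-labelled replicates 1 to 4. It was highest in Control replicate 3, which had 12.5 M (mega) estimated reads and also the fewest genes at 0 over the whole table, 2186, and was not highest in the deepest embryo, TKO-labelled replicate 3 at 19.1 M reads.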
